A study of Mus musculus with 21 samples.

Results

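The 83 genes described here encode the proteins of the cytoplasmic ribosome. They were chosen by gene symbol alone, as the protein-coding genes named Rpl or Rps followed by a number together with Rplp0, Rplp1, Rplp2 and Rpsa, out of 21808 protein-coding genes in the annotation used. Of these members, 51 belong to the large subunit and 32 to the small subunit. Their reads were followed in 21 RNA-Seq libraries, taken 24 hours after surgery from wildtype mice. The cells were polymorphonuclear neutrophils (PMNs), labelled as from blood, and tubular epithelial cells (TECs) from kidney.

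The mice were male C57BL/6 animals of 8 to 12 weeks. Ischemia-reperfusion injury (IRI) was a 32-minute clamp of both renal pedicles, and sham animals were operated on without it. Remote ischemic preconditioning (RIPC) was 3 cuff inflations of 5 minutes on a hind limb before surgery, and in control animals the cuff was inflated only to a low pressure that left the limb perfused. The PMN groups were sham control (2 libraries), sham RIPC (3), IRI control (2) and IRI RIPC (3), and the TEC groups were sham control (3), sham RIPC (3), IRI control (2) and IRI RIPC (3). TECs were enriched on magnetic beads against prominin-1, a surface protein of the proximal tubule. Cell type goes with tissue and isolation method, so these cannot be told apart when PMNs are set against TECs.

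Ribosomes translate every cellular mRNA, and each is built from ribosomal RNA and a nearly fixed set of proteins that are needed in equal numbers. Most of their mRNAs begin with a run of pyrimidines right at the cap, the 5′ terminal oligopyrimidine (TOP) tract, through which growth signalling by mTORC1 controls their translation as a group. Production of ribosomes is coupled to growth, which circulating PMNs have left behind and which injured tubular epithelium takes up again during repair. mRNA levels alone, as measured here, do not report how many ribosomes a cell holds.

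The annotated start of these genes is shown because the tract is a feature that the choice by symbol did not use. RefSeq start-site windows (GRCm38.p6) were on hand for 63 of the 83 members. A tract was counted when a C followed by pyrimidines made a run of at least 5 bases whose first base lay within 10 bases of the annotated start. Such a run was found for 39 of the 63 members (61.9%) and for 34.4% of all 27025 genes in that table, and a run of 8 or more for 24 members (38.1%) against 9.43% of all genes. In each line below, 10 bases before and 20 bases from the annotated start are printed 5′ to 3′, with the run in capitals. The lines show some of the members named later and do not represent how often a run occurs.
Rps27, chr3:90213629-90213658, minus strand: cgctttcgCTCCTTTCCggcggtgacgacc
Rps27l, chr9:66946076-66946105, plus strand: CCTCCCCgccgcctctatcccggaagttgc
Rps9, chr7:3704031-3704060, plus strand: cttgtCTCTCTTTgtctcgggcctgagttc
Rps12, chr10:23787190-23787219, minus strand: tcatgcggccaccgccggCCTTTTCCCCTg
Rpl35, chr2:39005112-39005141, minus strand: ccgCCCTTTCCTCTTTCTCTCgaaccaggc
Rpl38, chr11:114668570-114668599, plus strand: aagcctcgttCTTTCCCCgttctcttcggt
Rpl27a, chr7:109519185-109519214, plus strand: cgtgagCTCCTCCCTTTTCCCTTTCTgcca
Rps28, chr17:33824543-33824572, minus strand: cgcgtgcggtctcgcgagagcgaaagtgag
Rpl7l1, chr17:46782637-46782666, minus strand: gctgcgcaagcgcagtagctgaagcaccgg

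The longest run among the members was the 20 bases of Rpl27a, and Rps28 and Rpl7l1 had none within the tolerance. That of Rps27l lay wholly before the annotated start, and the gene's other window had no run. The rule counts such runs too, so a counted run need not be part of the mRNA. In the whole 300-base windows, on either strand, the ETS-type motif CCGGAAG was found for 41.3% of members and 9.93% of all genes, the YY1-type AAGATGG for 15.9% and 7.28%, and the TATA-type TATAAA for 11.1% and 15.7%. These are matches of letters and say nothing of binding.

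The 21 libraries held between 20881334 and 51624602 reads, of which between 183392 and 614290 lay on the members, so counting error was small beside the spread between libraries. All 10 neutrophil markers, such as S100a8 and Csf3r, were higher in PMNs than in TECs with an adjusted p under 0.05 after either surgery (edgeR quasi-likelihood F test). PMNs of sham animals also held reads of other cells. The summed level of 10 proximal tubule markers was 1397 to 11542 CPM (counts per 1000000 reads) in the 5 sham PMN libraries and 476 to 853 CPM in the 5 IRI PMN libraries, with at most 1 of the 10 at 0 in a library, and that of 7 macrophage markers, none at 0, was 2766 to 9164 CPM against 758 to 1692 CPM. The 10 neutrophil markers summed to 6972 to 28715 CPM in sham and 20285 to 33997 CPM in IRI PMNs, with none at 0, and to 1.83 to 143 CPM in TECs, with 1 to 6 of the 10 at 0. In TECs the proximal tubule markers, none of them at 0, were at 7251 to 22234 CPM after sham surgery and 3032 to 6510 CPM after IRI. The highest sham PMN library, PMN sham control replicate 2, thus lay within the range of sham TECs. Its summed level of 8 distal tubule and collecting duct markers was 5426 CPM, with 1 of the 8 at 0. The other PMN libraries had 43.3 to 715 CPM and the TEC libraries 104 to 984 CPM, with 0 to 4 at 0. PMN sham RIPC replicate 3 and TEC IRI RIPC replicate 3 stood apart, with 16.8% and 13.7% of their reads on other genes of effective length under 300 bases, against 3.82% to 10.7% in the remaining libraries. In bulk samples, fewer cells of a type and less RNA per cell cannot be told apart.

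Among the members the levels spanned a wide range that was much the same in PMNs and TECs. Levels are compared between genes as TPM, transcripts per 1000000, which corrects for length. Of the 83 members, 57 had a median over 100 TPM in PMNs and 60 in TECs. In PMNs the highest median was that of Rps9, in the small subunit (790 TPM), and Rpl13, in the large subunit, was among the highest (471 TPM). In TECs the 3 highest were Rpl41, which encodes an exceptionally short basic peptide (524 TPM), Rps2 (466 TPM) and Rplp0, the base of the ribosomal stalk (465 TPM). For 77 of the 80 members with at least 1 TPM in both cell types, the medians of PMNs and TECs were within a factor of 2. The rank order over the 83 members was similar too, with a Spearman correlation of 0.92 given as a description, since all values share the same annotation and length correction.

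Of the stalk proteins, which recruit translation factors to the ribosome, Rplp0 was at 471 TPM in PMNs, Rplp1 at 267 TPM and Rplp2 at 140 TPM, as medians. In TECs the medians were 465, 219 and 87.9 TPM in the same order. Rpsa, which doubles as a laminin-binding protein at the cell surface, was at 99.0 TPM in PMNs and 125 TPM in TECs. Rps6, the target of S6 kinases, was at 345 and 238 TPM, and Rps27a, made as a fusion with ubiquitin, at 186 and 170 TPM. Rpl5 and Rpl11, which with 5S ribosomal RNA can bind the p53 regulator Mdm2, were at 8.32 and 157 TPM in PMNs and 15.1 and 129 TPM in TECs. Rpl13a, known for a role in silencing inflammatory mRNAs, was at 380 and 305 TPM.

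The low value of Rpl5 stands beside a pseudogene. Salmon divides reads that fit several transcripts among them, and 67 members share long stretches with 308 other genes of the annotation, 294 of them pseudogenes. These copies held 7.71% of the reads of members and copies together. The shares were uneven. Gm15500 and other copies held 82.8% of the joint reads with Rpl5, Gm10275 and others 72.9% with Rpl12, Rpl10-ps3 and others 69.3% with the X-linked Rpl10, and Gm7536 and others 56.0% with Rpl27a. For 15 members the copies held more than 10%, so their levels are uncertain.

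The 6 members whose symbols mark them as relatives of another member had levels far apart. Rpl10l, Rpl39l and Rpl3l, known for expression in testis or muscle, were the 3 lowest members in both cell types. Rpl10l had reads in 3 libraries only, with 67, 3 and 16 reads, and its highest level was 2.58 CPM, in PMN IRI control replicate 2. Rpl39l was at 0 CPM in all PMN libraries and reached 5.15 CPM in TECs, in IRI RIPC replicate 3. Rpl3l was at 0 to 14.5 CPM in PMNs and 0 to 21.5 CPM in TECs, whereas its parent Rpl3 was at 223 to 386 CPM and 250 to 505 CPM. Rpl22l1 and its parent Rpl22 were at medians of 83.04 and 56.02 TPM in PMNs and 72.8 and 34.2 TPM in TECs. Rpl7l1 was at 16.0 TPM in PMNs and 24.6 TPM in TECs, under the 158 and 138 TPM of Rpl7. For Rps27l and Rps27 the medians over both surgeries lay in opposite order. The median of Rps27l was 140 TPM in PMNs and 329 TPM in TECs, and that of Rps27 was 465 TPM in PMNs and 227 TPM in TECs. These medians pool surgeries that are compared separately later.

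The 83 members together took 0.749% to 2.02% of the reads outside the mitochondrial genome. In PMNs the share was 1.33% and 2.02% in sham control, 1.77%, 1.71% and 0.914% in sham RIPC, 0.749% and 0.804% in IRI control, and 0.970%, 0.759% and 1.23% in IRI RIPC libraries. Thus 4 of the 5 sham libraries lay above all 5 IRI libraries, and the fifth was PMN sham RIPC replicate 3, 1 of the 2 libraries rich in short transcripts. In TECs the order was the other way. The share was 1.38%, 1.64% and 0.970% in sham control, 1.10%, 1.03% and 1.06% in sham RIPC, 1.87% and 1.81% in IRI control, and 1.70%, 1.72% and 0.834% in IRI RIPC libraries. Here 4 of the 5 IRI libraries lay above all 6 sham libraries, and the fifth was TEC IRI RIPC replicate 3, the other library rich in short transcripts. This order was lost when the share was corrected for length, where TEC sham control replicate 2 was at 3.78% and the highest IRI library at 2.75%. The mean of the 5 sham and the 5 IRI PMN libraries was 1.55% ± 0.433 and 0.902% ± 0.202 (SD, n = 5 each), and that of the 6 sham and 5 IRI TEC libraries 1.20% ± 0.260 (SD, n = 6) and 1.59% ± 0.427 (SD, n = 5). This share is a sum over the members and was not tested.

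**Figure D1:**
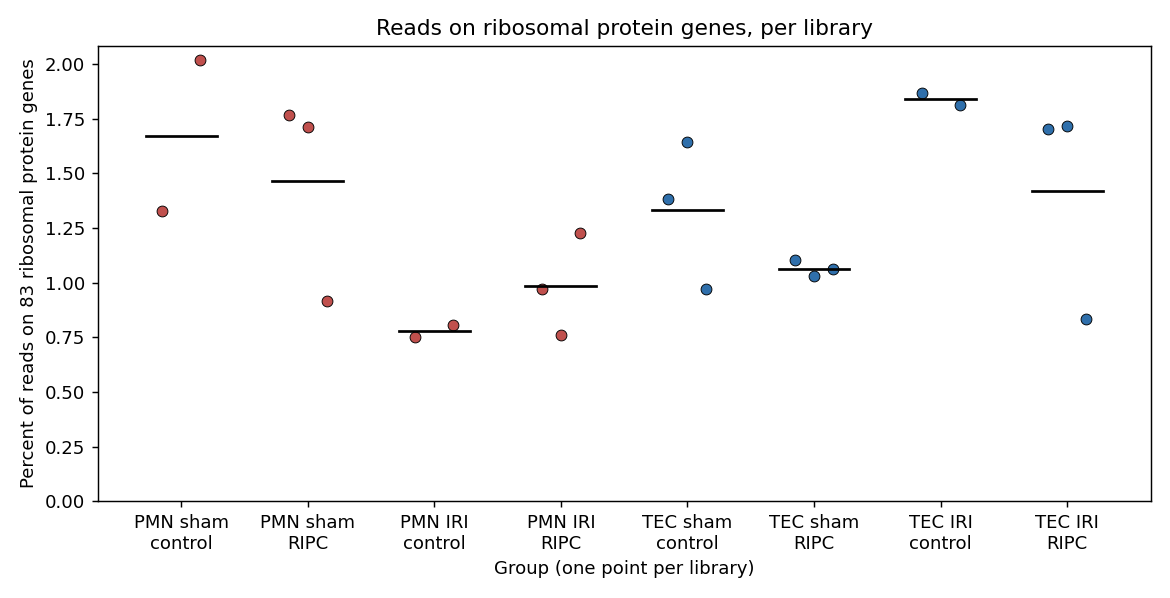
Percent of each library's reads (mitochondrial genome left out) on the 83 ribosomal protein genes; each point is 1 library, PMNs in red and TECs in blue, and each bar is the group mean. The IRI PMN libraries lie between 0.749% and 1.23%, and 4 of the 5 IRI TEC libraries lie between 1.70% and 1.87%, above all sham TEC libraries.

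The large subunit took more reads than the small one in every library, by a ratio between 1.14 and 1.62. In PMNs this ratio was 1.28 ± 0.123 (SD, n = 5) after sham surgery and 1.48 ± 0.0762 (SD, n = 5) after IRI, and in TECs 1.52 ± 0.0648 (SD, n = 6) and 1.44 ± 0.138 (SD, n = 5). The ranges of sham and IRI libraries overlapped in both cell types. In PMNs the overlap came from PMN sham RIPC replicate 3 (1.47), 1 of the 2 libraries rich in short transcripts. The other sham PMN libraries were at 1.14 to 1.31 and the IRI PMN libraries at 1.43 to 1.62.

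The members varied together from library to library. After removing group means, a member's deviation correlated with the mean deviation of the other members with a median r of 0.83 over the 10 PMN libraries and 0.79 over the 11 TEC libraries, and r was above 0 for 78 of 81 and 80 of 82 members tested. All other genes correlated with the members' mean at a median r of -0.09 and -0.08. These are descriptions, and all genes of a library share its depth and scaling. Rplp0 was the member closest to the rest in PMNs (r = 0.98) and Rpl26 in TECs (r = 0.98). Rpl12 (r = -0.50) and Rpl7l1 (r = -0.42) ran against the others in PMNs. The SD of a member within groups was small, with a median of 0.52 on the log2 scale in PMNs and 0.42 in TECs, against 0.79 and 0.69 for other genes of the same range of levels.

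**Figure D2:**
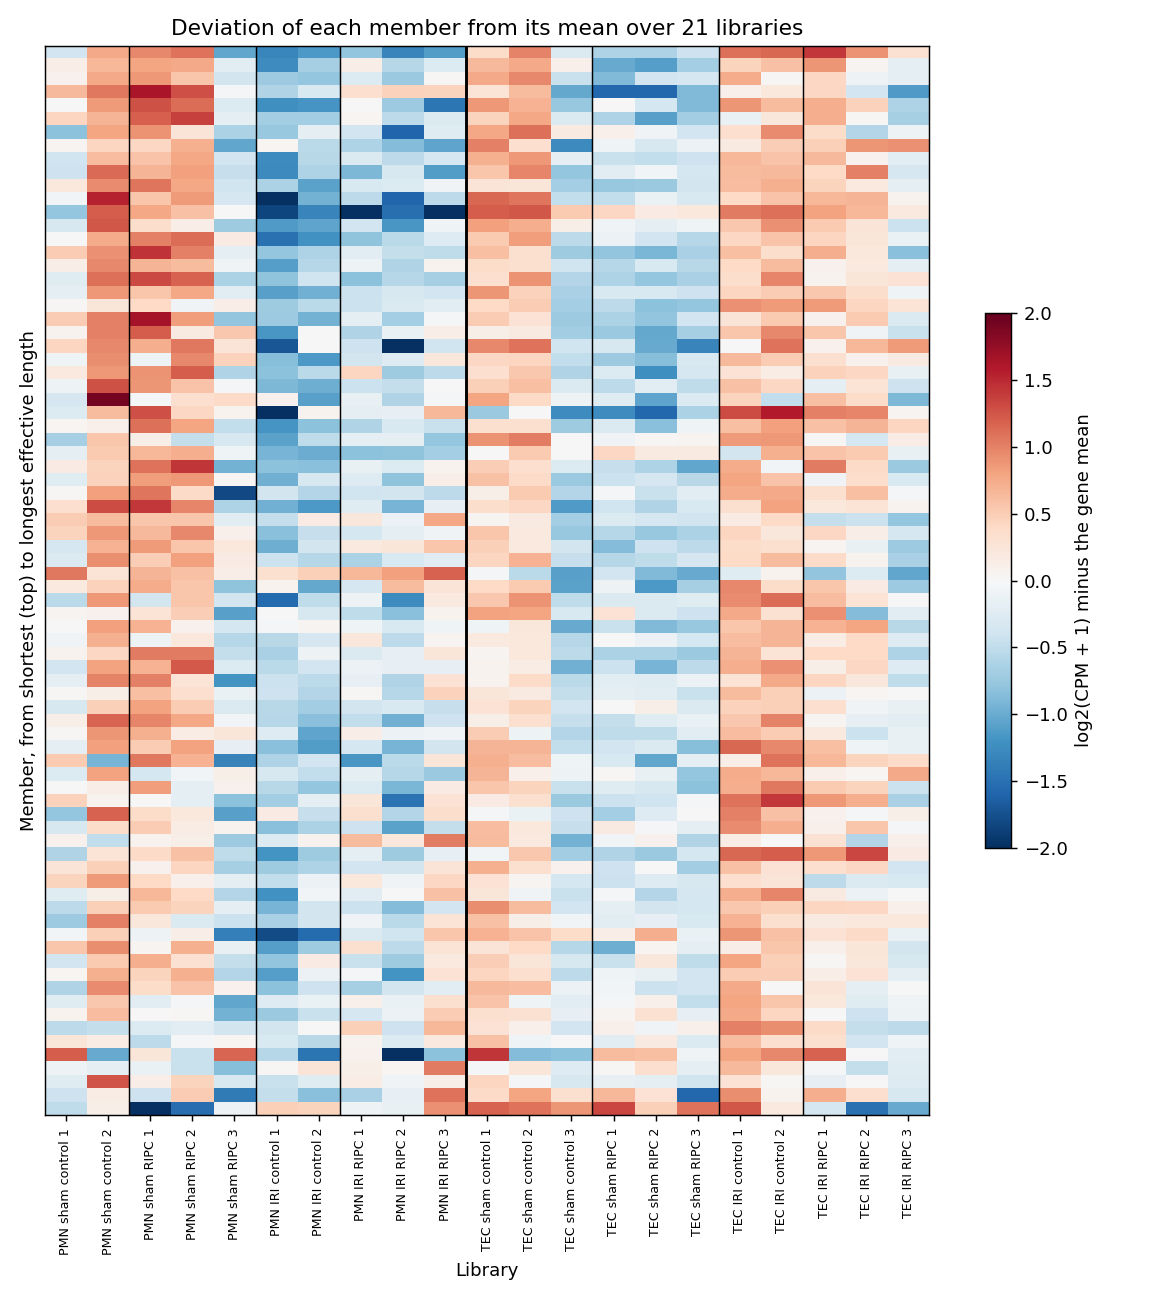
Deviation of log2(CPM + 1) from each gene's mean over the 21 libraries, for the 80 members other than Rpl10l, Rpl39l and Rpl3l, in order of effective transcript length, with lines between groups and colours cut at 2 log2 units. Whole columns are mostly red, as in PMN sham control replicate 2 (75 of 80 members above their mean), or mostly blue, as in PMN IRI RIPC replicate 2 (6 of 80).

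IRI was set against sham surgery in PMNs, as the mean over control and RIPC animals. These cells are labelled as from blood, and how kidney and macrophage reads entered the sham libraries was not tested. Of the 81 members tested, 75 were lower after IRI and 6 higher. Their median log2 fold change was -0.83, where that of all 26105 genes tested was -0.01. No member passed the adjusted p of 0.05 in edgeR's quasi-likelihood F test, and 0.375% of all genes did. At an unadjusted p under 0.05, 31 members were lower and none higher, and 4.93% of all genes were lower by this rule. In 13 members all 5 IRI libraries lay below all 5 sham libraries, where 2.05% of all genes did so. Without PMN sham RIPC replicate 3 and TEC IRI RIPC replicate 3, the median was -0.96. It was -0.52 without PMN sham control replicate 2, the sham library with the most proximal tubule reads. Leaving out IRI control replicate 1 or 2 gave -0.72 and -0.89. Each of these single-library omissions leaves a group of 1 library, and the count of 31 fell in all of them. No share of all genes is given for these fits. Besides the kidney and macrophage reads of sham PMNs, the summed level of 9 markers of immature neutrophils moved with this contrast. It was 278 to 1278 CPM in 4 sham libraries (3 to 7 of the 9 at 0 over all sham libraries), 9166 CPM in PMN sham control replicate 1, and 4400 to 5238 CPM in the IRI libraries (1 to 4 at 0), with 3 of 9 higher at an unadjusted p under 0.05 and none called. The part of these cells in the members' values was not tested. DESeq2's Wald test called 7 of the 81 members lower, among them Rps27l, Rpl35, Rpl31, Rpl37a and Rps21, and 7.76% of all genes. The members' share is close to that background.

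The member of smallest p in PMNs was Rps27l, a relative of Rps27 that is known as a target of p53. Its level was 62.0 and 247 CPM in sham control, 184, 161 and 108 CPM in sham RIPC, 29.3 and 41.9 CPM in IRI control, and 15.6, 36.8 and 24.9 CPM in IRI RIPC libraries. The lowest sham library lay above the highest IRI library. The log2 fold change was -2.35 ± 0.51 (SE), with an adjusted p of 0.133. It was -1.63 with an adjusted p of 0.583 without PMN sham control replicate 2, and -2.67 with an adjusted p of 0.0322 without PMN sham control replicate 1. Rps27l is abundant in TECs, at 119 to 254 CPM, and the part of kidney RNA in the level of the sham PMN libraries was not tested.

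Rpl35 and Rps25 followed. Rpl35, a large subunit protein near the exit of the nascent chain, was at 84.2 to 184 CPM in the 5 sham PMN libraries and 29.2 to 70.3 CPM in the 5 IRI libraries, a log2 fold change of -1.59 ± 0.39 (SE, adjusted p = 0.168). The ranges did not overlap. Copies of Rpl35, mostly Gm2000, held 42.5% of the joint reads. Rps25, a small subunit protein used by internal ribosome entry sites of viruses, was at 233 to 421 CPM after sham surgery and 121 to 206 CPM after IRI, also without overlap (-1.08 ± 0.28 SE, adjusted p = 0.21). Rps19, the gene most often mutated in Diamond-Blackfan anemia, was at 169 to 689 CPM and 116 to 231 CPM, with overlap (-1.61 ± 0.43 SE, adjusted p = 0.222). The stalk members did not move alike. The log2 fold changes were -1.16 for Rplp1 and -1.01 for Rplp2 but 0.02 for Rplp0. Rpl4, Rpsa, Rpl10 and Rpl7l1 had positive values of 0.43 to 1.08, none with an unadjusted p under 0.05. Rpl4 was the only 1 of the 81 members whose 5 IRI libraries all lay above the 5 sham libraries, as did 3.41% of all genes.

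Without RIPC, the same difference rested on 2 against 2 PMN libraries. Of 81 members, 77 were lower in IRI control than in sham control, with a median log2 fold change of -0.998 against 0.00 over all genes. It was -0.54 without sham control replicate 2 and -1.34 without sham control replicate 1. None passed the adjusted threshold in edgeR, nor did any other gene (0%), while 18 members were lower at an unadjusted p under 0.05, as were 2.03% of all genes. Few or none of the 18 were left without PMN IRI control replicate 1 or 2 or sham control replicate 2. Each of these fits leaves a group of 1 library, and no share of all genes is given for them. In 60 members both IRI control libraries lay below both sham control libraries, where 14.3% of all genes did so. In 3 members, Rpl4, Rpl7l1 and Rpsa, both lay above, where 17.7% of all genes did so. The smallest p was that of Rps2, a core protein at the mRNA entry of the small subunit. It was at 409 and 590 CPM in sham control and 122 and 145 CPM in IRI control (-1.92 ± 0.58 SE, edgeR unadjusted p = 0.00914, adjusted p = 0.732). Rpl35 and Rps25 came next, with log2 fold changes of -1.81 and -1.33 and the same adjusted p.

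In TECs the same contrast gave mostly positive values. Of the 82 members tested, 79 were higher after IRI, with a median log2 fold change of 0.39, where the median of all 27027 genes was 0.15. With DESeq2's size factors the medians were 0.52 and 0.28. Without TEC sham control replicate 3 they were 0.26 and 0.42, so that the members lay below other genes, as they did with a replicate block (0.29 and 0.31). No member passed the adjusted p of 0.05 in edgeR, and 1.39% of all genes did. At an unadjusted p under 0.05, 7 of the 82 members were higher, where 6.37% of all genes were, so the members' share is close to the background. This count rose without TEC sham control replicate 2 and moved either way without other single libraries. No share of all genes is given for these fits. Rpl8 and Rps24, 2 of 82 members, were higher in all 5 IRI libraries than in all 6 sham libraries, where 1.42% of all genes were, which is again near the background. DESeq2's Wald test called 5 of the 82 members higher, Rps12, Rpl17, Rpl27, Rpl38 and Rpl8, and 8.47% of all genes. The members' share is not above that background.

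Markers of other cells were higher in the same TEC contrast. All 7 neutrophil markers tested had positive values, 5 of them at an unadjusted p under 0.05, and their summed level was 1.83 to 36.6 CPM in sham and 27.2 to 143 CPM in IRI libraries. Of 6 endothelial markers 3 were higher by this rule (summed level 4.48 to 85.02 CPM against 4.99 to 270 CPM, with 0 to 3 at 0), and of 5 erythrocyte markers 4 were higher and 1 lower (5.66 to 788 CPM against 95.4 to 982 CPM, with 0 to 2 at 0). None was called, and their part in the members' values was not tested.

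Rps12, a small subunit protein with a part in sensing unequal ribosomal protein dosage in flies, had the smallest p. Its level was 19.3, 33.2 and 13.3 CPM in sham control, 13.2, 10.4 and 20.96 CPM in sham RIPC, 82.8 and 101 CPM in IRI control, and 67.6, 66.0 and 34.2 CPM in IRI RIPC libraries. On this scale TEC IRI RIPC replicate 3 lay barely above TEC sham control replicate 2, and scaled within TECs alone the groups overlapped. The log2 fold change was 1.96 ± 0.50 (SE, adjusted p = 0.0775), and 2.09 with an adjusted p of 0.0439 without TEC IRI RIPC replicate 3. Genes that share any stretch of 50 bases with Rps12, a looser rule than that for copies, held 35.8% of the joint reads. Rpl17, a large subunit protein at the exit tunnel, was at 55.7 to 136 CPM in sham and 106 to 238 CPM in IRI libraries (1.28 ± 0.39 SE, adjusted p = 0.141).

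Rpl7l1, which takes part in ribosome assembly rather than in the finished ribosome, had the opposite sign to most members in both cell types. In TECs it was at 65.4 to 119 CPM after sham surgery, 112 and 53.7 CPM in IRI control and 36.4, 16.0 and 22.7 CPM in IRI RIPC libraries. The log2 fold change for IRI was -1.12 ± 0.43 (SE, adjusted p = 0.254), and in PMNs it was 1.08 ± 0.77 (SE, adjusted p = 0.579). Rpl3l had reads in 4 of 6 sham TEC libraries, at 0.9 to 21.5 CPM, and in 1 of 5 IRI libraries, at 0.59 CPM.

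Without RIPC, 62 of 82 members had a positive log2 fold change for IRI in TECs, with a median of 0.26 against 0.07 over all genes. Without TEC sham control replicate 3 the medians were 0.05 and 0.41, and without replicate 2 they were 0.42 and 0.00. No member passed the adjusted threshold in edgeR and 0.0037% of all genes did. In 21 of the 82 members both IRI control libraries lay above the 3 sham control libraries, where 13.6% of all genes did so. At an unadjusted p under 0.05 in edgeR, 2 of the 82 members were higher and none lower. By this rule 4.24% of all genes were higher, so the members' share is not above the background. Rps12 again had the smallest p (2.01 ± 0.73 SE, adjusted p = 0.499), and Rpl8, a large subunit protein near the peptidyl transferase center, was among those next in order (0.95 ± 0.47 SE). In DESeq2 Rps12 was called alone among the 82 members (adjusted p = 0.038), with 5.01% of all genes, so the members' share is not above the background.

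**Figure D3:**
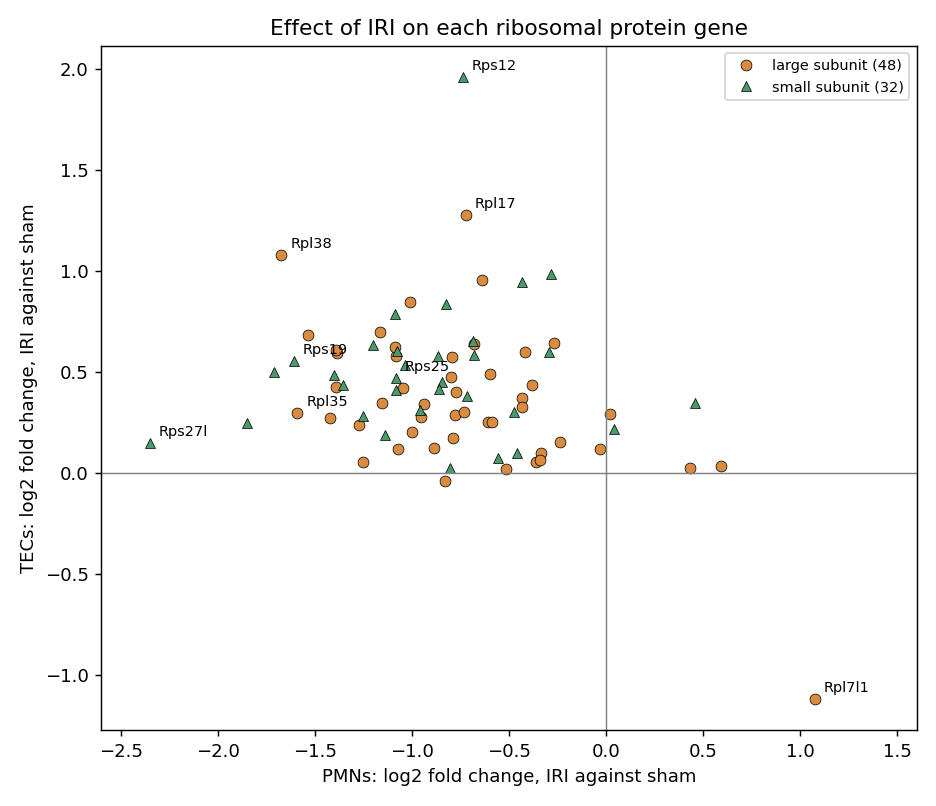
Log2 fold change of IRI against sham, as the mean over control and RIPC, in PMNs (x axis) and TECs (y axis) for the 80 members other than Rpl10l, Rpl39l and Rpl3l, with large subunit members as circles and small subunit members as triangles. Most points lie in the upper left, lower in PMNs and higher in TECs, and Rpl7l1 lies at the lower right; no member passed the adjusted threshold in either edgeR fit.

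The libraries of the 2 cell types are separate, and 74 of the 81 members tested in both had log2 fold changes of opposite sign, as had 50.7% of the 22331 genes tested in both. No member separated sham from IRI libraries without overlap in opposite directions in both cell types, and 47 of all genes did (0.21%). The difference between PMNs and TECs in the effect of IRI was tested in a fit to all 8 groups. The members' median was -1.29 on the log2 scale, against -0.16 over all 33360 genes, and 77 of 83 were negative. No member passed the adjusted threshold in edgeR, nor did any other gene (0%), and 35 members were negative at an unadjusted p under 0.05, where 4.36% of all genes were. That count fell without PMN sham control replicate 2 or either PMN IRI control library, where 1 library is left in a group. No share of all genes is given for these fits. By the Wald test of DESeq2, 25 members were called, all negative, and 7.43% of all genes. The smallest p values in edgeR were those of Rps27l (-2.51 ± 0.66 SE, adjusted p = 0.21), Rps19 (-2.18 ± 0.62 SE, adjusted p = 0.251) and Rpl38, known for its part in the translation of Hox mRNAs (-2.77 ± 0.85 SE, adjusted p = 0.28). Rpl38 was at 14.7 to 67.6 CPM in sham and 12.0 to 17.8 CPM in IRI PMNs, and at 20.1 to 63.4 CPM in sham and 39.2 to 85.5 CPM in IRI TECs. The ranges overlapped in both cell types.

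Between the cell types themselves, the direction depended on the surgery. After sham surgery 67 of 83 members were higher in PMNs than in TECs, with a median log2 difference of 0.44 against 0.00 over all genes. None passed the adjusted threshold in edgeR, where 2.52% of all genes did, and 10 of the 83 members were higher at an unadjusted p under 0.05, where 8.13% of all genes were. Without PMN sham control replicate 2 the median was 0.07, and without TEC sham control replicate 3 it was 0.19, as for all genes. The Wald test of DESeq2 called 7 of the 83 members higher and Rpl7l1 lower, and 14.7% of all genes. The members' share is not above that background. After IRI 75 of 83 were lower in PMNs, with a median of -0.78 against -0.06. Here 24 members were lower at an unadjusted p under 0.05, against 7.66% of all genes, and in 22 members all 5 PMN libraries lay below all 5 TEC libraries, against 2.87%. The adjusted threshold in edgeR was passed by 1 member, against 2.54% of all genes. The 24 became fewer without any 1 of the PMN or TEC IRI control libraries, where 1 library is left in a group. No share of all genes is given for these fits. In DESeq2 24 were called lower and 1 higher, and 11.6% of all genes.

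The member called in edgeR was Rps27l, lower in IRI PMNs (15.6 to 41.9 CPM) than in IRI TECs (123 to 229 CPM). The log2 difference was -2.65 ± 0.51 (SE, adjusted p = 0.00563). Leaving out PMN IRI control replicate 1 or 2 raised the adjusted p to 0.142 and 0.0756, with log2 differences of -2.47 and -2.80. In the 16 settings that changed the processing, and without any other single IRI library, Rps27l stayed under the threshold. After sham surgery Rps27l was at 62.0 to 247 CPM in PMNs and 119 to 254 CPM in TECs, with overlap (-0.14 ± 0.45 SE, edgeR unadjusted p = 0.764).

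Its relative Rps27 overlapped between the cell types after IRI, at 53.2 to 112 CPM in PMNs and 36.7 to 109 CPM in TECs. After sham surgery Rps27 was at 79.0 to 254 CPM in PMNs and 26.8 to 126 CPM in TECs (1.61 ± 0.49 SE, adjusted p = 0.0914), with overlap, and copies held 31.5% of its joint reads. Rps9 was higher in every PMN library than in every TEC library. It was at 393 to 746 CPM in sham and 449 to 814 CPM in IRI PMNs, and at 169 to 348 CPM and 174 to 375 CPM in TECs. Its log2 difference after sham surgery was 1.22 ± 0.35 (SE, adjusted p = 0.0691). Rpl7l1 was the only member whose 5 sham PMN libraries, at 1.6 to 50.8 CPM, all lay below the 6 sham TEC libraries, as did 3.67% of all genes, and Rps9 the only one whose sham PMN libraries all lay above them, as did 3.65%. Neither count of 1 in 83 exceeds the background.

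**Figure D4:**
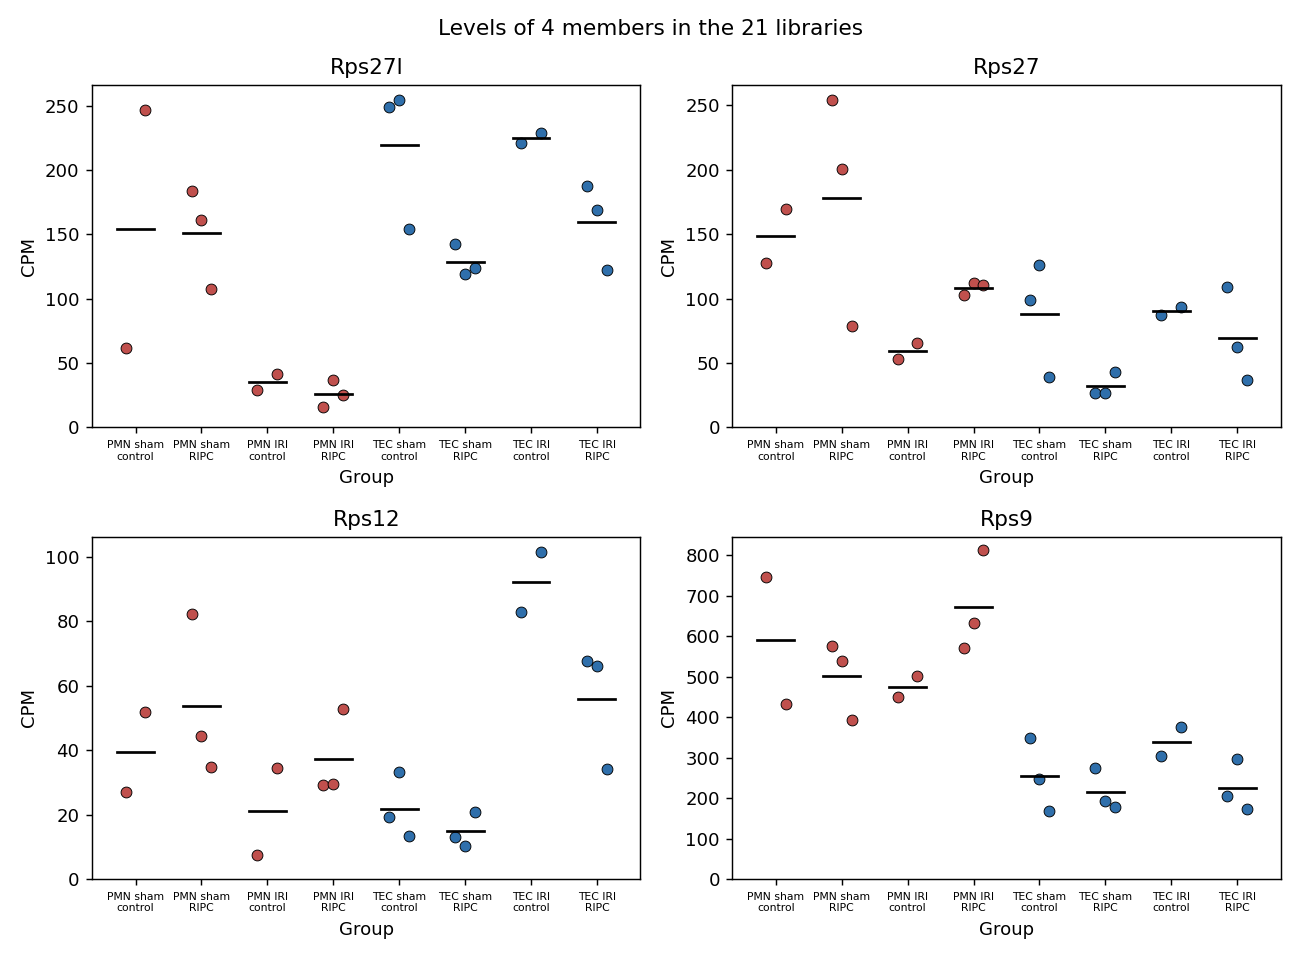
CPM of Rps27l, Rps27, Rps12 and Rps9 in the 21 libraries by group (PMNs red, TECs blue), with each group mean as a bar. Rps27l in IRI PMNs stays at or under 41.9 CPM, Rps12 reaches 101 CPM in an IRI control TEC library, and all PMN libraries lie above all TEC libraries for Rps9 only.

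RIPC against control was the comparison the study was built on. In PMNs after sham surgery the members showed no common direction. Of 81 members, 34 were higher and 47 lower with RIPC, with a median log2 fold change of -0.05, and the median changed sign when single libraries were left out (-0.35 to 0.49). None was called in edgeR, where 0.00383% of all genes were, and none had an unadjusted p under 0.05. The smallest p values were those of Rps6, Rplp0 and Rpl6, a large subunit protein, with log2 fold changes of -0.56 ± 0.34, -0.59 ± 0.38 and -0.64 ± 0.44 (SE) and an adjusted p between 0.704 and 0.718. Rps6 was at 470 and 623 CPM in control and 457, 372 and 306 CPM in RIPC libraries.

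After IRI, 71 of 81 members were higher with RIPC than without in PMNs, with a median log2 fold change of 0.41 against 0.00 over all genes. None was called in edgeR, nor was any other gene (0%). In 25 of the 81 members all 3 RIPC libraries lay above both control libraries, where 6.35% of all genes did so. At an unadjusted p under 0.05 in edgeR, 1 of the 81 members was higher and none lower. By this rule 0.827% of all genes were higher, so the members' share is close to the background. Rps2 had the smallest p, at 122 and 145 CPM in IRI control and 345, 322 and 621 CPM in IRI RIPC (1.65 ± 0.54 SE, unadjusted p = 0.014, adjusted p = 0.914). Rpl18 and Rpl34, both in the large subunit, followed with log2 fold changes of 0.94 ± 0.47 and 0.86 ± 0.57 (SE). This comparison shares its control libraries with that of IRI and sham surgery. The interaction of RIPC and surgery had a median of 0.44 over the members, with 64 of 81 positive. It was 0.02 without PMN sham control replicate 2, 0.19 without sham RIPC replicate 3 and 0.74 without sham control replicate 1. No gene was called in edgeR (0%). Rps2 again had the smallest p (2.23 ± 0.74 SE, adjusted p = 0.717), before Rps6 (1.02 ± 0.49 SE) and Rpl6 (1.25 ± 0.64 SE).

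In TECs the members were mostly lower with RIPC after either surgery. After sham surgery 78 of 82 were lower, with a median log2 fold change of -0.66, where the median of all genes was 0.21. The 5 erythrocyte markers were lower too, 4 at an unadjusted p under 0.05 and none called, with a summed level of 19.6 to 788 CPM in control and 5.66 to 14.4 CPM in RIPC libraries (0 to 2 at 0), and their part was not tested. No gene was called in edgeR (0%). At an unadjusted p under 0.05, 3 of the 82 members were lower, where 1.22% of all genes were. This count rose without TEC sham control replicate 3 and fell without any other single library. No share of all genes is given for these fits. In 15 members all 3 RIPC libraries lay below all 3 control libraries, where 2.49% of all genes did so. The 3 were Rps28, Rps27 and Rpl41, whose mRNAs are short. Rps28 was at 68.1, 73.2 and 46.2 CPM in control and 20.9, 19.6 and 26.7 CPM in RIPC (-1.52 ± 0.61 SE, adjusted p = 0.703). Rpl41 was at 366, 410 and 196 CPM in control and 164, 158 and 166 CPM in RIPC (-1.03 ± 0.44 SE, same adjusted p). Rps27 was at 98.6, 126 and 39.3 CPM and 26.8, 26.8 and 43.4 CPM, with overlap (-1.49 ± 0.64 SE). DESeq2's Wald test called Rps28 alone among the 82 members (adjusted p = 0.0441), and 1.66% of all genes, so the members' share is not above the background.

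After IRI 74 of 82 members were lower with RIPC in TECs, with a median log2 fold change of -0.42 against 0.15 over all genes. No member was called in edgeR, where 0.0037% of all genes were. In 40 members all 3 RIPC libraries lay below both control libraries, where 8.79% of all genes did so. At an unadjusted p under 0.05 in edgeR, 2 of the 82 members were lower and none higher. By this rule 2.59% of all genes were lower, so the members' share is close to the background. Rpl7l1 had the smallest p (-1.72 ± 0.62 SE, adjusted p = 0.776). Rpsa was at 474 and 448 CPM in IRI control and 308, 168 and 163 CPM in IRI RIPC (-1.11 ± 0.47 SE). Without TEC IRI RIPC replicate 3 the median was -0.28. The interaction had a median of 0.18 (0.02 to 0.40 with single libraries left out, the lowest without TEC sham control replicate 2 and the highest without replicate 3), with 54 of 82 members positive, and no gene was called in edgeR (0%). Its smallest p values were those of Rpl7l1 (-1.64 ± 0.83 SE), Rpsa (-1.09 ± 0.63 SE) and Rps28 (1.34 ± 0.91 SE), with an adjusted p from 0.715 to 0.852.

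Transcript length moved with some of these differences and not with others. The effective lengths of the members had a median of 376 bases. In PMNs after IRI the median log2 fold change was -1.08 in the 42 members at or under that length and -0.60 in the 39 above it, and over the 81 members length and log2 fold change had a Spearman correlation of 0.65. Other genes of up to 600 bases had a median of -0.30 and longer ones 0.07. In TECs with RIPC after sham surgery the medians were -0.78 in 42 short and -0.36 in 40 long members (Spearman correlation of 0.63), while other genes were at 0.24 and 0.21. Correlations of the same sign were found for IRI without RIPC in PMNs (0.51) and for PMNs against TECs after IRI (0.44). That for the difference between the cell types in the effect of IRI was 0.66. In the remaining comparisons the relation was weaker, absent or ran the other way. The Spearman correlation was -0.29 for IRI in TECs (medians of 0.46 in short and 0.31 in long members), -0.34 for RIPC after IRI in TECs, -0.63 for the interaction in TECs and -0.03 for RIPC after IRI in PMNs. These correlations are descriptions over members of the same libraries. The part of RNA integrity or of size selection of the cDNA in them was not tested.

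**Figure D5:**
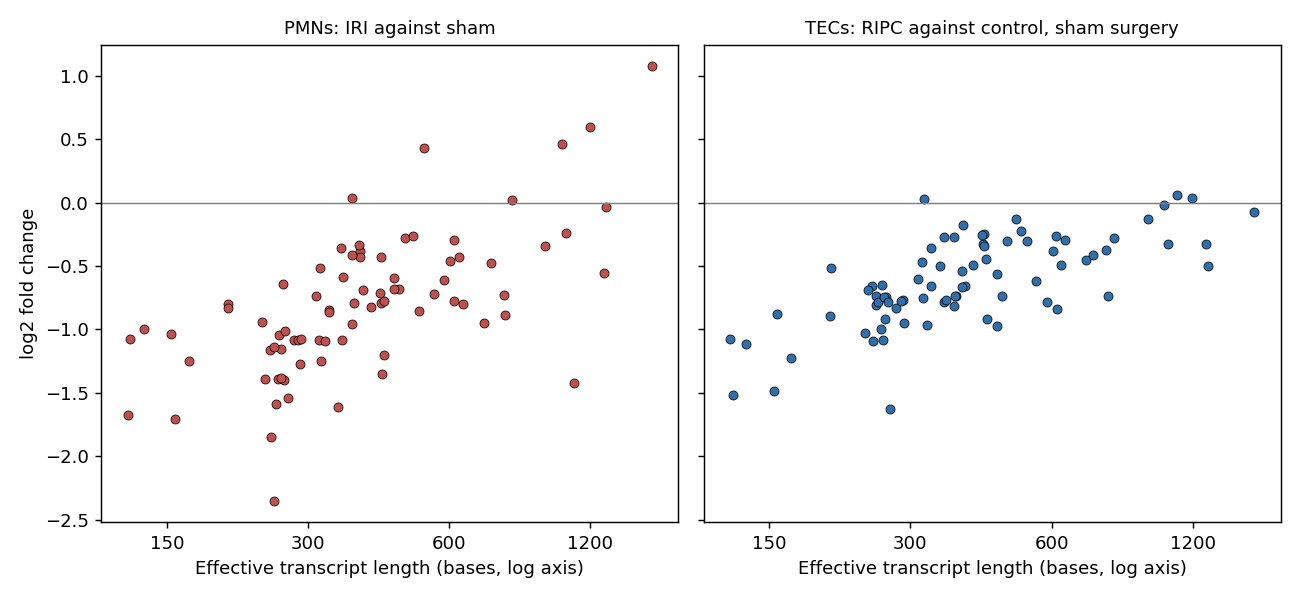
Log2 fold change of the members (y axis) against effective transcript length in bases (x axis, log scale) for IRI against sham surgery in PMNs (left) and RIPC against control after sham surgery in TECs (right), without Rpl10l, Rpl39l and Rpl3l. In both panels the shorter members lie lower, with medians of -1.08 (left) and -0.78 (right) for those at or under the median length.

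Members with and without a pyrimidine run near the annotated start were set side by side. In PMNs after IRI the median log2 fold change was -0.96 in 37 members with a run and -0.66 in 24 without, and in TECs after IRI it was 0.42 in 38 and 0.35 in 24. The X-linked members were followed as a role of their own. In PMNs after IRI the log2 fold changes were 0.43 for Rpl10, -1.39 for Rpl36a, -1.54 for Rpl39 and -0.47 for Rps4x, and in TECs 0.03, 0.43, 0.68 and 0.30.

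Other genes of the ribosome and its supply were counted in the same fits. Of 15 further mRNAs known to carry a TOP tract, such as those of elongation factors, 9 were higher and 6 lower in PMNs after IRI (median 0.22), and none was called. In TECs after IRI their median was 0.00 and 1 was called, Nap1l1, a histone chaperone (1.81 ± 0.41 SE, adjusted p = 0.0445). It was at 47.3 to 102 CPM in sham and 76.1 to 330 CPM in IRI libraries. Of 22 genes of ribosome assembly, 13 were higher in TECs after IRI, and 1 was called, Eif6, which keeps the subunits apart until assembly is complete (1.46 ± 0.33 SE, adjusted p = 0.0436). Eif6 was at 120 to 294 CPM in sham and 233 to 555 CPM in IRI TECs. In TECs after IRI 1.39% of all genes were called. The calls of 1 of 15 and 1 of 22 are single genes and no result about the lists. None of these 22 genes was called in PMNs after IRI. Of 12 genes of RNA polymerase I and 13 of growth signalling, none was called in any comparison. The 5 ribosomal proteins that the choice by symbol left out, such as Fau, had medians of -1.02 in PMNs and 0.18 in TECs after IRI, with none called.

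The genes of the 78 proteins of the mitochondrial ribosome, encoded in the nucleus, were mostly lower after IRI than after sham surgery in both cell types. In TECs 68 of them were lower, with a median log2 fold change of -0.69, while 79 of 82 cytoplasmic members were higher. Mrpl12 was called (-1.58 ± 0.33 SE, adjusted p = 0.0305). It was 1 of 78, where 1.39% of all genes were called, so this share is near the background. Proximal tubule markers were also lower, 9 of 10 at an unadjusted p under 0.05 and 5 of 10 called, and their part was not tested. In PMNs after IRI 66 of the 78 were lower, with a median of -1.08 and none called. Between the cell types after IRI, 3 genes of assembly or with a TOP tract were called lower in PMNs, namely Nop10, of the small nucleolar particles that modify ribosomal RNA (-2.89 ± 0.55 SE, adjusted p = 0.00539), and Tpt1, a TOP mRNA (-1.34 ± 0.35 SE, adjusted p = 0.0418) and Nap1l1 (-2.31 ± 0.58 SE, adjusted p = 0.0327). Of the mitochondrial ribosome, Mrpl12, Mrpl42, Mrps34 and Mrps6 were called lower in PMNs after IRI, and Mrpl3, Mrpl4 and Mrps22 after sham surgery. These are 4 and 3 of the 78. In these comparisons 2.54% (IRI) and 2.52% (sham) of all genes were called, so such small counts are no result about the lists.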

How the data were processed

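Poly(A) RNA was reverse transcribed, amplified as full-length cDNA, selected on beads and sequenced as single-end reads of 50 bases. The authors trimmed the reads (Trim Galore 0.6.4) and quantified them with Salmon 1.0.0 against a Gencode mouse transcriptome on mm10, per the submitters' processing notes. The deposited values were estimated counts per transcript, not normalized, the deposited TPM, and effective lengths. Each library came as 2 files, which were added. Transcripts were assigned to genes with Gencode M21 of GRCm38, and 0.139% to 0.255% of reads had no match. Gene sums were rounded. TPM was recomputed from counts and effective lengths of both files.

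In R 4.3.3, quasi-likelihood models of edgeR 4.0.16 were fitted to the 4 groups of a cell type, or to all 8 (F test), with TMM and filterByExpr, leaving out mitochondrial genes. Benjamini-Hochberg adjustment ran over all genes tested (26105 in PMNs, 27027 in TECs, 33360 in both). The filter kept 81, 82 and 83 members. IRI against sham averages RIPC and control unless stated. CPM values use TMM factors over the 21 libraries. A copy of a member shared at least 100 stretches of 50 bases with it, and at least 30% of its own. Groups had 2 or 3 libraries. The study describes them as biological replicates, and p-values measure the spread between them. Replicate numbers were not used as pairs. Alternatives included DESeq2 1.42.0, other filters and scalings, and each library left out.

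The members and gene lists were chosen with earlier results of these data known. Named genes are those with set roles, relatives of other members, the highest and lowest levels, and in each comparison those called or else the 3 with smallest p. Copies and the 2 libraries rich in short transcripts were examined after the data were seen, as were Rps19, Rpl38, Rps9, Rpl4, Rpl8 and Rps24 where they stand outside this rule. A few members that this rule names are not reported here.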

Additional observations from a re-analysis of the deposited data

How the results depend on the processing

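Beside edgeR's 0 calls for IRI against sham surgery in PMNs, 2 members were called without a filter, 2 with at least 10 counts in every library, 7 by DESeq2's Wald test and 0 to 1 with single libraries left out. In TECs 3 were called with at least 10 counts, 5 by DESeq2, 1 without the 2 libraries rich in short transcripts, a setting chosen after seeing the data, and 0 to 1 with single libraries left out. DESeq2 called 1 member for IRI without RIPC and 1 for RIPC after sham surgery in TECs. For PMNs against TECs after sham surgery the counts were 4 with at least 10 counts, 1 with robust dispersion, 8 by DESeq2, 1 without those libraries and 0 to 2 with single libraries left out, of which the 2 came without TEC sham control replicate 2 (Rps9 and Rps27). After IRI, in place of 1, they were 12 with at least 10 counts, 5 in a fit to the compared groups alone, 25 by DESeq2 and 0 to 1 with single libraries left out. For the difference in the effect of IRI they were 2 with at least 10 counts and 25 by DESeq2. No member was called in any setting for RIPC in PMNs, for IRI without RIPC in PMNs, for RIPC after IRI in TECs or for either interaction (0 to 0 with single libraries left out). Apart from DESeq2, the share of all genes called in these settings is not given here. A setting may call more of all genes, so these counts are no result about the members. The cause of these shifts was not tested. The replicate block called 1 member after IRI between the cell types and 0 elsewhere, as without it. Same-numbered libraries correlated in their deviations from group means at -0.02 to 0.03 in PMNs and -0.11 to 0.14 in TECs. For other numbers the ranges were -0.03 to 0.03 and -0.12 to 0.08. PMN libraries were not set against TEC libraries in this way, so whether both came from the same mice was not tested.

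The mean share of reads on the members, in the order sham control, sham RIPC, IRI control, IRI RIPC, ranged with single libraries left out from 1.33% to 2.02%, 1.31% to 1.74%, 0.749% to 0.804% and 0.865% to 1.10% in PMNs and from 1.18% to 1.51%, 1.05% to 1.08%, 1.81% to 1.87% and 1.27% to 1.71% in TECs. The length-corrected share was 2.56%, 2.34%, 1.16% and 1.48% in PMNs and 2.56%, 1.75%, 2.63% and 2.10% in TECs. With pseudogenes named after a member added, PMN IRI control was at 0.816%, TEC sham RIPC at 1.12% and TEC IRI control at 1.92%, and with all copies added at 0.850%, 1.15% and 1.98%. With mitochondrial reads kept, TEC sham RIPC was at 0.795% and TEC IRI control at 1.43%.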
